A study of Mus musculus with 4 samples.

Results

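The NF-kB pathway genes described here are 10 genes of the mouse genome: the transcription factor subunits *Nfkb1*, *Nfkb2*, *Rel*, *Rela* and *Relb*, the inhibitor genes *Nfkbia*, *Nfkbib* and *Nfkbie*, and the kinase genes *Chuk* and *Ikbkb*. They were taken by their symbols from the annotation of the mm9 assembly, where all 10 were found among 22367 protein-coding genes of chromosomes 1 to 19, X and Y. What was measured is their position relative to the nuclear lamina in hepatocytes with and without *Tm7sf2*. Their expression was not analysed here.

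NF-kB proteins are transcription factors that bind DNA as dimers and drive inflammatory, survival and immune genes. In resting cells IkB inhibitor proteins hold the dimers in the cytoplasm, and a kinase complex (IKK) that answers cytokines and microbial products marks the inhibitors for destruction, so that the dimers enter the nucleus. In the liver this pathway governs the acute-phase response and protects hepatocytes from death induced by tumor necrosis factor.

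The study mapped chromatin at the nuclear envelope (NE) by DamID, in which Dam methylase fused to LaminB1 methylates GATC sites of DNA touching the lamina and a Dam methylase without the fusion serves as control. Primary hepatocytes from WT (*Tm7sf2*+/+) and KO (*Tm7sf2*-/-) mice, all on a C57BL/6 background and aged 12 to 16 weeks, received lentivirus for LaminB1-Dam or for the Dam control for 24 h, and DNA was taken 60 h after transduction. *Tm7sf2* encodes NET47, a sterol reductase of the endoplasmic reticulum and the NE. There are 4 libraries, 1 for each construct and genotype, and each holds pooled DNA of 4 mice. All cultures were exposed to lentivirus, the KO is of the whole animal, and each genotype gives 1 value per gene, so that neither a spread between animals nor a p-value can be given. The lists carry no expression values, and the identity of the cells was not checked here.

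The authors turned the ratio of LaminB1-Dam to Dam control into lists of lamina-associated domains (LADs), 8107 in WT and 16076 in KO, which covered 55.4% and 56.1% of the genome. Stretches of at least 10 kb that were in a LAD of only one genotype are the differential regions (DRs). The lists hold no signal and no read numbers, so the depth behind a LAD is unknown here. The study states fewer usable reads for the KO than for the WT, and the KO list holds more and shorter LADs. The contribution of either to the distances below was not tested. A gene was called IP (interior in WT, periphery in KO) where its span touched a KO-only DR, PI for a WT-only DR, AMB for both, PP where it lay in LADs of both genotypes without a DR, and II otherwise.

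The results turn on *Rel* and *Ikbkb*, which lay in KO LADs, and on *Nfkb1*, toward which a LAD border shifted. The borders near these genes are shown because they set the distances given below. Each is a run of 40 bases of mm9 with the Dam target GATC, at which the LAD ends, in capitals.
Border of the nearest WT LAD facing *Rel*, chr11:23694895-23694934, plus strand: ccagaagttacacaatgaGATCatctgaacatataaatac
First border of the KO LAD over *Rel*, chr11:23615005-23615044, plus strand: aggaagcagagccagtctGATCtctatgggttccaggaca
Last border of the KO LAD over *Rel*, chr11:23696141-23696180, plus strand: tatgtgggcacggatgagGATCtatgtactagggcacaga
First border of the KO LAD over the start of *Ikbkb*, chr8:23811312-23811351, plus strand: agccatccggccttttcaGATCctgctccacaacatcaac
Last border of the KO LAD over the start of *Ikbkb*, chr8:23833609-23833648, plus strand: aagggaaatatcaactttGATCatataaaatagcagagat
Border of the nearest WT LAD facing *Nfkb1*, chr3:135435936-135435975, plus strand: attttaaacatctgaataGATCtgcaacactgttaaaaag
Border of the nearest KO LAD facing *Nfkb1*, chr3:135407852-135407891, plus strand: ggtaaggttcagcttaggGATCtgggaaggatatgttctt

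The 250 bases before the start of *Rel* and *Ikbkb* are shown because these stretches were inside a KO LAD and outside every WT LAD. Capitals mark GATC and the kB-type motif GGNNNTTCC, searched on both strands (GGAANNNCC on the other), with overlapping matches counted.
*Rel*, chr11:23670971-23671220, minus strand: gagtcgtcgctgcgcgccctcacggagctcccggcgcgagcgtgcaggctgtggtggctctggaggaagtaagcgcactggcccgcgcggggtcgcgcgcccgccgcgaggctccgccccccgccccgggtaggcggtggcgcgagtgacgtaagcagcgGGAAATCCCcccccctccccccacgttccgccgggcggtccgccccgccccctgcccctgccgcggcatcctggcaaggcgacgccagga
*Ikbkb*, chr8:23817062-23817311, minus strand: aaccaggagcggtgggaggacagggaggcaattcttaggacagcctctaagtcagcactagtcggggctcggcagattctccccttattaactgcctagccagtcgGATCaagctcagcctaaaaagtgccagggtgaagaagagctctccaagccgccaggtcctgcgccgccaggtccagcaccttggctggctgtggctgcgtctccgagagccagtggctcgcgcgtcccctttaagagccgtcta

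None of the 10 genes lay in a LAD in WT. All 10 starts were outside the WT LADs, as were 77.3% of starts over all genes, and not a base of any span was in a WT LAD. In KO the start of *Rel* and the start of *Ikbkb* were inside a LAD. Both genes were IP, which is 2 of 10 beside 17.1% of all genes. The other 8 were II, beside 56.6% of all genes, and had not a base in a KO LAD either. No member was PI (5.43% of all genes), PP (17.9%) or AMB (2.96%). The IP share was thus near that of the genome, and with 10 genes no difference between the shares can be read from it.

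The distance from the start to the nearest LAD was smaller in KO for all 10 genes. Over all genes it was smaller in KO for 66.5%, and for 86.1% of the 17290 genes whose start was in no WT LAD and which could therefore come nearer. The direction was thus that of most genes outside WT LADs. The median distance of the 10 genes was 359 kb in WT and 75.8 kb in KO, against 114 kb and 25.6 kb over all genes. The NF-kB genes therefore had larger median distances than the genome in both genotypes, without a test of this difference. The KO medians depended on short LADs. With LADs of at least 20 kb, the medians of the 10 genes were 449 kb in WT and 280 kb in KO, against 171 kb and 64.2 kb over all genes. With LADs of at least 50 kb they were 468 kb and 374 kb, against 276 kb and 225 kb.

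**Figure D1:**
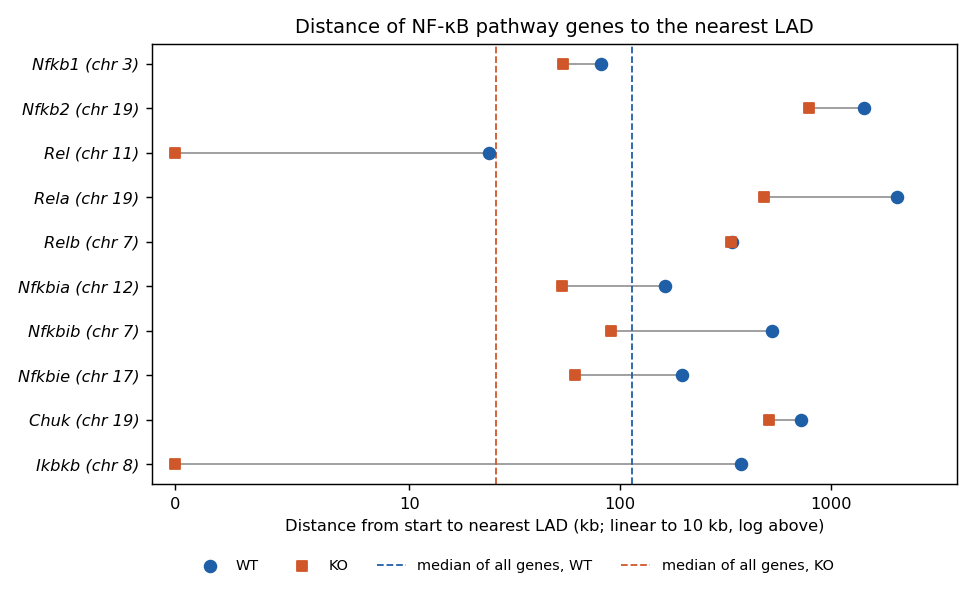
Distance in kb from the start of each gene to the nearest LAD in WT (circles) and KO (squares), 1 value per genotype, on an axis that is linear to 10 kb and logarithmic above, with the medians of all genes as dashed lines. The KO value is the smaller in all 10 genes, *Rel* and *Ikbkb* reach 0 in KO, and the 2 values of *Relb* nearly coincide.

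In WT the order from the farthest to the nearest gene was *Rela*, *Nfkb2*, *Chuk*, *Nfkbib*, *Ikbkb*, *Relb*, *Nfkbie*, *Nfkbia*, *Nfkb1* and *Rel*. In KO *Nfkb2* was the farthest, followed by *Chuk*, *Rela* and *Relb*, and then by a group at 52.8 to 90.5 kb that held *Nfkbib*, *Nfkbie*, *Nfkb1* and *Nfkbia*. Without replicates it cannot be said which neighbors in these orders differ beyond their spread.

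For 7 of the 10 genes (*Nfkb2*, *Rela*, *Nfkbia*, *Nfkbib*, *Nfkbie*, *Chuk* and *Ikbkb*) the nearest KO LAD lay wholly outside the WT LADs, as it did for 69.6% of genes with the start in no WT LAD. The nearest KO LADs measured 10.6 to 81.1 kb with a median of 21.1 kb, and 5 of 10 were under 20 kb, beside 49.5% over genes with the start in no WT LAD. The nearest WT LADs measured 10.7 to 808 kb with a median of 18.1 kb, and 6 of 10 were under 20 kb, beside 39.1%. When only LADs of at least 50 kb were kept, 5 of the 10 genes were nearer to a LAD in KO, beside 54.2% of genes with the start in no such WT LAD. *Rel*, *Nfkbia*, *Ikbkb*, *Nfkb2* and *Rela* were then still nearer in KO, whereas *Nfkb1*, *Nfkbib*, *Nfkbie*, *Relb* and *Chuk* were nearer in WT.

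Of the subunits, *Rel*, which encodes c-Rel, the subunit best known from lymphocytes, was nearest to a LAD in WT. It lies on chromosome 11 (mm9, 23641514-23670970, minus strand), and its start was 23.9 kb from the closest WT LAD, upstream. In KO a LAD of 81.1 kb held the whole gene, all 10 exons included (chr11:23615026-23696161). This LAD reached from 25.2 kb before the start to 55.9 kb past it and shared 1246 bases with the WT LAD upstream. The remaining 79.9 kb are a KO-only DR that holds 100% of the gene. A whole span in a KO-only DR was found for 1 of the 10 genes and for 3.78% of all genes. In the 100 kb centred on the start, 26.1% was in LADs in WT and 90.9% in KO. The same KO LAD took in 26.6% of the span of *Pus10*, a pseudouridine synthase gene that is the nearest neighbor of *Rel* to overlap a LAD.

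**Figure D2:**
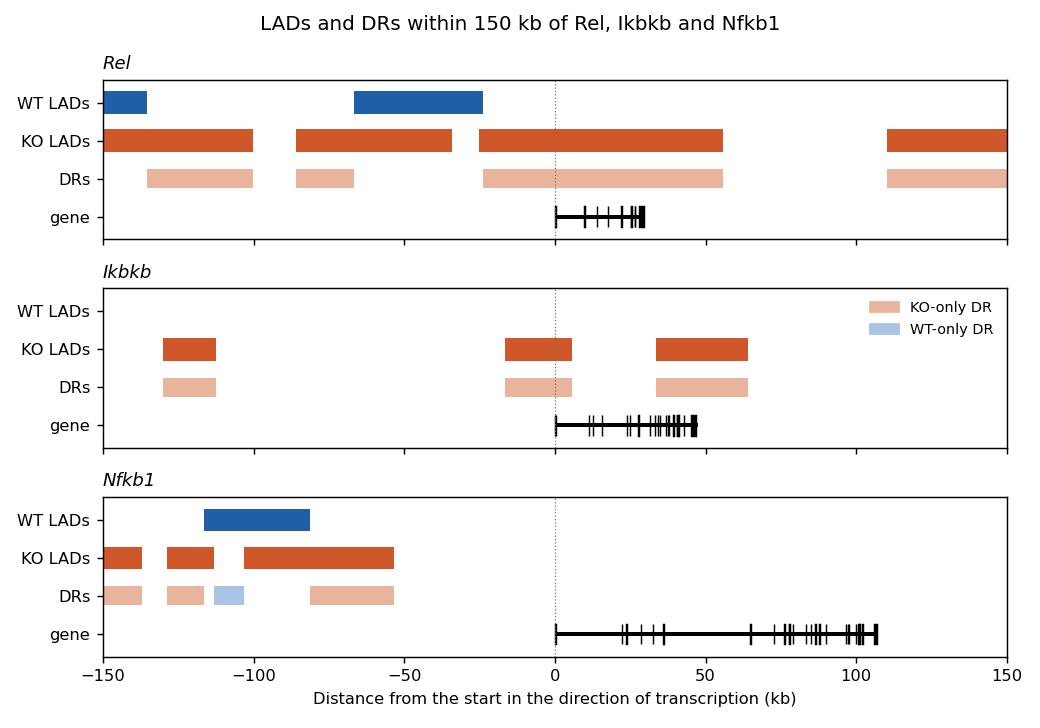
LADs of WT and KO, DRs (pale red KO-only, pale blue WT-only) and gene models with exons as black blocks, within 150 kb of the starts of *Rel*, *Ikbkb* and *Nfkb1*, in kb from the start in the direction of transcription. A KO LAD covers all of *Rel*, separate KO LADs cover the start and the 3' part of *Ikbkb*, and near *Nfkb1* the border facing the gene lies 28.1 kb closer in KO while the gene stays outside.

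*Nfkb1* encodes p105, the precursor of the p50 subunit, and spans 107 kb of chromosome 3 (135247619-135354511, minus strand). All 25 exons were outside the LADs of both genotypes. Its start lay 81.4 kb from the nearest LAD in WT and 53.4 kb in KO, both upstream. The WT LAD there (chr3:135435957-135471150) measured 35.2 kb. The KO LAD (chr3:135407873-135457737) measured 49.9 kb, and 43.7% of it was in WT LADs. The difference of 28.1 kb was therefore an extension of chromatin that was in a LAD in both genotypes, and farther upstream a WT-only DR began 103 kb from the start. With LADs of at least 50 kb the direction turned, the distances being 172 kb (WT) and 203 kb (KO). The 100 kb centred on the start held no listed LAD in either genotype, and the lists hold no LAD or DR shorter than 10 kb.

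*Rela* encodes p65, the main transactivating partner of p50, and was the farthest of the 10 genes in WT. On chromosome 19 (5637483-5648130, plus strand), its start was 2060 kb from a LAD in WT and 481 kb in KO. The KO distance was set by a single LAD of 19.9 kb, upstream, wholly outside the WT LADs, and with LADs of at least 50 kb the distances were 2143 kb and 2070 kb. *Nfkb2* encodes p100, the precursor of p52 in the non-canonical pathway. On the same chromosome (46379227-46386580, plus strand), its start was 1445 kb from a LAD in WT and 785 kb in KO, where the nearest LAD was 13.5 kb long. Both genes stayed deep inside LAD-free chromatin in KO, where 2.34% of all genes were farther from a LAD than *Nfkb2*.

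*Relb*, whose product pairs with p52, showed the smallest difference. It lies on chromosome 7 (20191566-20214787, minus strand), and its start was 342 kb from a WT LAD of 808 kb and 335 kb from a KO LAD of 33.4 kb, both upstream. Of that KO LAD, 79.6% was in WT LADs. The border had shifted by 6.83 kb, less than the 10 kb needed for a DR, so that the nearest KO-only DR was 641 kb away. *Relb* was the only one of the 10 genes whose nearest KO-only DR was farther than its nearest KO LAD.

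The 3 inhibitor genes were II and had KO distances within 52.8 to 90.5 kb, each set by a short KO LAD of 10.6 to 18.3 kb outside the WT LADs. *Nfkbia* encodes IkBa, the inhibitor that NF-kB itself induces and that ends the response. Its start on chromosome 12 (56590398-56593634, minus strand) was 164 kb from a LAD in WT and 52.8 kb in KO. *Nfkbib* encodes IkBb, and its start on chromosome 7 (29543270-29552531, minus strand) was 524 kb from a LAD in WT and 90.5 kb in KO, the largest ratio (5.79) among the 8 genes that stayed outside. *Nfkbie* encodes IkBe, and its start on chromosome 17 (45692665-45700118, plus strand) was 197 kb from a LAD in WT, upstream, and 61.0 kb in KO, downstream. For *Nfkbia* the smaller KO distance was also seen with longer LADs, the distances to LADs of at least 50 kb being 381 kb (WT) and 88.6 kb (KO). With the same limit the distances were 1712 kb in WT and 2171 kb in KO for *Nfkbib*, and 340 kb and 344 kb for *Nfkbie*, so that in these 2 genes the direction rested on LADs shorter than 50 kb.

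*Ikbkb* encodes IKK2, the kinase that phosphorylates the IkB proteins in the canonical pathway. It lies on chromosome 8 (23769684-23817061, minus strand), and in WT its start was 376 kb from a LAD. In KO 41.1% of the span was in KO LADs, and there were 2 of them. The first (chr8:23811333-23833629) measured 22.3 kb, reached 16.6 kb before the start and 5.73 kb past it, and held exons 1 and 2. The second (chr8:23752829-23783436) measured 30.6 kb and held exons 11 to 21, which include the 3' end of the gene. The 8 exons between them were outside. Both LADs had 0 bases in WT LADs, and the second also took in 43.8% of the neighboring *Polb*, which encodes DNA polymerase beta. In the 100 kb around the start, LADs made up 0% in WT and 38.7% in KO.

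A start in a KO LAD was found for 2 of the 10 genes, beside 16.5% of genes with the start in no WT LAD. At the distance of *Ikbkb* it was less frequent in the genome: of 7194 genes at least as far from a WT LAD as *Ikbkb*, a limit that this gene itself set, 3.46% had the start in a KO LAD. Among the members 5 genes met this limit, and 1 of them, *Ikbkb*, had its start in a KO LAD. Since both KO LADs at *Ikbkb* were under 50 kb, its KO distance was 365 kb when only LADs of at least 50 kb were kept, against 556 kb in WT.

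*Chuk* encodes IKK1, the kinase that phosphorylates p100 in the non-canonical pathway. On chromosome 19 (44147824-44181970, minus strand), its start was 721 kb from a LAD in WT, downstream, and 512 kb in KO, upstream. The WT LAD measured 341 kb, and its border facing *Chuk* was also that of a WT-only DR. The KO LAD of 24.7 kb was wholly outside the WT LADs. With LADs of at least 50 kb the distances were 721 kb in WT and 3252 kb in KO, so that the direction turned. The 2 catalytic IKK genes thus differed in class, *Ikbkb* being IP and *Chuk* II, without a test between them.

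*Nfkb2*, *Rela* and *Chuk* share chromosome 19, where the KO LADs covered less around genes than the WT LADs did. The median LAD share of the 1 Mb centred on a start was 12.2% in WT and 6.30% in KO over the 724 genes of this chromosome. All 3 members there were nearer to a LAD in KO, beside 73.2% of the chromosome's genes with the start in no WT LAD. Their KO distances of 481 to 785 kb all exceeded the chromosome's median of 153 kb. Over the 7 members on other chromosomes the median distance was 197 kb in WT and 53.4 kb in KO.

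The wider surroundings gave 3 patterns. *Nfkb1*, *Rel*, *Nfkbia* and *Ikbkb* had a larger LAD share of the 1 Mb window in KO. The share was 45.7% in WT and 55.7% in KO around *Nfkb1*, 27.4% and 48.5% around *Rel*, 16.4% and 37.7% around *Nfkbia*, and 2.50% and 28.1% around *Ikbkb*. The largest of these differences was 25.6 percentage points, around *Ikbkb*. Over all genes the median difference was 2.29 points and the upper quartile 7.85 points, and all 4 of these genes were above that quartile. In WT the shares around *Nfkbia* and *Ikbkb* were below the median of all genes (23.3%), and those around *Nfkb1* and *Rel* were above it. *Relb* (15.8% and 15.0%) and *Nfkbie* (19.8% and 22.1%) had almost equal shares in WT and KO. *Nfkb2*, *Rela*, *Nfkbib* and *Chuk* had no WT LAD in the window, which is 4 of 10 beside 27.0% of all genes, and in KO the window held 0%, 1.86%, 3.05% and 0%.

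**Figure D3:**
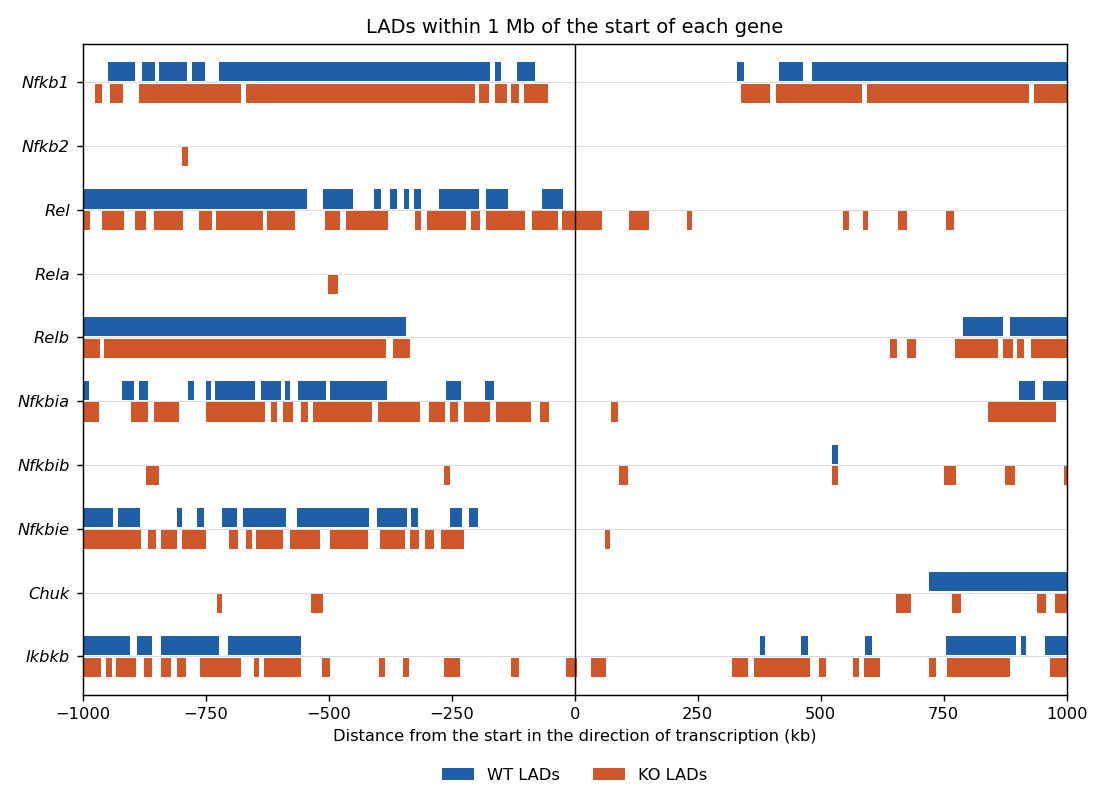
LADs of WT (upper bars) and KO (lower bars) within 1 Mb of the start of each of the 10 genes, in kb from the start in the direction of transcription. LADs crowd the upstream side of *Rel*, *Nfkbia* and *Nfkbie* in both genotypes, scattered KO LADs lie around *Ikbkb*, and a single KO LAD is seen near *Nfkb2* and near *Rela*.

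The LAD share was higher in KO for 7 of the 10 genes, beside 63.0% of all genes, and for 1 of the 3 genes on chromosome 19 (*Rela*), beside 26.0% of the genes of that chromosome. The median over the 10 genes was 9.16% in WT and 18.5% in KO, against 23.3% and 28.8% over all genes. The number of LADs within 1 Mb on either side was higher in KO for all 10 genes, beside 89.3% of all genes. Around *Ikbkb* there were 10 in WT and 24 in KO, around *Rel* 9 and 21, and around *Nfkb1* 10 and 12. The KO LADs near *Ikbkb* were thus many rather than a single domain, and they measured 10.4 to 304 kb.

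**Figure D4:**
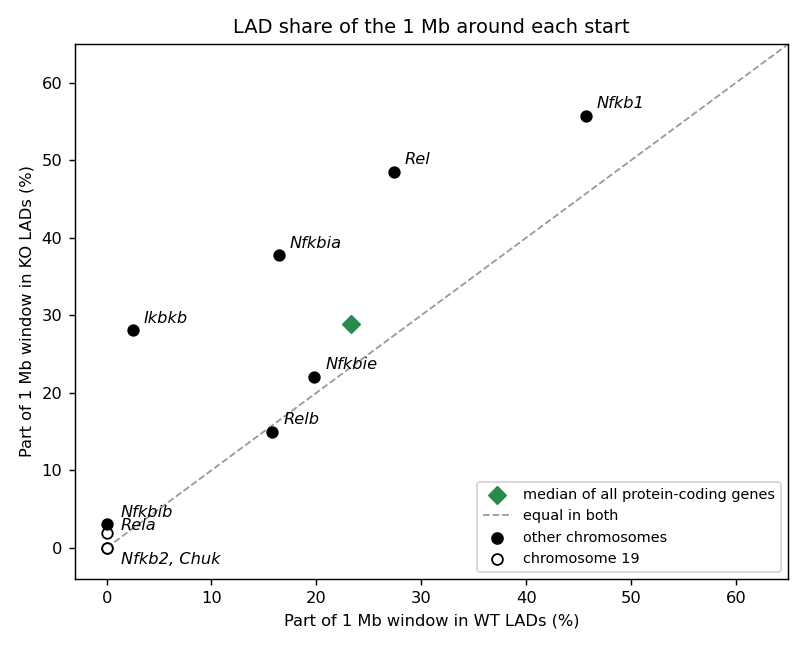
Part of the 1 Mb centred on each start that was in LADs in WT (x axis, %) and in KO (y axis, %), 1 point per gene, with open circles for chromosome 19, a diamond for the median of all genes and a dashed line for equal shares. *Nfkb1*, *Rel*, *Nfkbia* and *Ikbkb* sit well above the line, *Relb* and *Nfkbie* close to it, and the other 4 near the origin.

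The classes of the neighbors are set beside the 17.1% of all genes that were IP and the 56.6% that were II. Within 500 kb of *Rel*, 5 of 9 protein-coding genes were IP, as were 6 of 15 around *Ikbkb*, 4 of 9 around *Nfkb1* and 4 of 14 around *Nfkbia*. All 23 neighbors of *Nfkb2*, all 23 of *Chuk* and all 15 of *Nfkbie* were II, and so were 53 of 54 around *Rela*, 43 of 44 around *Nfkbib* and 43 of 47 around *Relb*. Near *Relb* the closest gene to overlap a LAD was *Ceacam20*, a cell adhesion gene, which was PP, with 77.0% of the gene covered in WT and 100% in KO. Near *Nfkb1* it was *Slc39a8*, a zinc and manganese transporter gene, with 56.7% of the gene in LADs in WT and 70.2% in KO. Near *Nfkbia* it was *Psma6*, a proteasome subunit gene, with 0% in WT and 40.6% in KO. The gene closest to *Nfkb2* that overlapped a LAD, *Btrc*, is itself of the pathway and encodes the ubiquitin ligase subunit that recognizes phosphorylated IkB, and 7.96% of its span was in a KO LAD. The others of this kind were *Pacs1* near *Rela*, *Ryr1* near *Nfkbib* and *Cnnm1* near *Chuk*, each IP with at most 23.1% of the span in KO LADs, and *Supt3h* near *Nfkbie*, which was AMB.

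The DNA around the genes differed little from the genome in its Dam sites. The 100 kb around the starts held 2.09 to 2.64 GATC sites per kb with a median of 2.46, against 2.49 over all genes, and the fragments between the GATC sites on either side of the starts measured 149 to 1610 bp. The GC content of these windows had a median of 48.1%, against 44.2% over all genes, with *Rel* the lowest and *Nfkbie* the highest at 52.1%. The number of protein-coding genes within 500 kb had a median of 19, against 15 over all genes, and ran from 9 around *Rel* and *Nfkb1* to 54 around *Rela*.

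The kB-type motif was found in the 250 bases before the start of 6 of the 10 genes, beside 15.8% of all genes. *Nfkb2* and *Nfkbia* had 3 matches each, *Relb* and *Nfkbie* 2 each, and *Rel* and *Chuk* 1 each. Of the genes whose start was in a KO LAD, *Rel* had the match shown in capitals above and *Ikbkb* had none. A match is a string of letters and was not tested as a binding site.

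The other genes of the pathway were taken from a list of 80 by role, all of which were found in the annotation. Of these, 60 were II, 13 were IP, 1 was PI, 4 were PP and 2 were AMB. The IP share was 16.25%, close to the 17.1% over all genes, and the PI share of 1.25% stood beside 5.43%. The II genes were 75% of the list beside 56.6% of all genes, and the PP genes 5% beside 17.9%. The median distance was 195 kb in WT and 75.1 kb in KO, against 114 kb and 25.6 kb over all genes. Of the 80 starts, 61 were nearer to a LAD in KO. The share was 66.5% over all genes and 86.1% over genes with the start in no WT LAD. The starts of *Il1a*, *Cd40lg*, *Tlr4*, *Sele* and *Bcl2a1a* were in a WT LAD and could not come nearer.

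**Figure D5:**
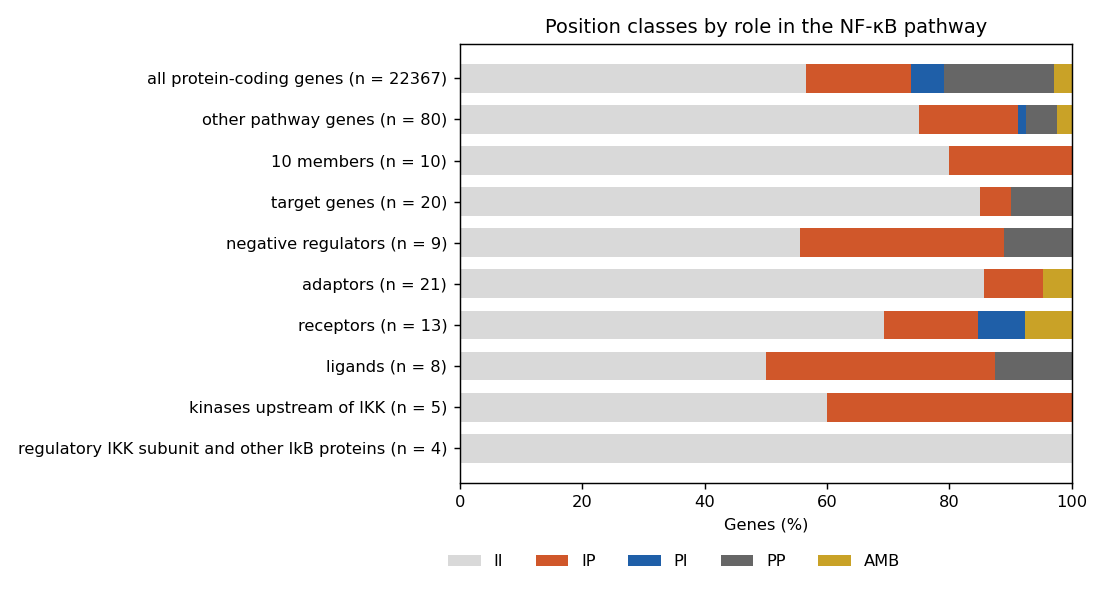
Share of genes (%) in each position class (II, IP, PI, PP and AMB) for the 7 roles of the other pathway genes, the 10 NF-kB pathway genes, the 80 other pathway genes and all genes. II is the largest class in every bar, and PI is seen in the receptors alone among the roles. IP reaches 40% in the 5 genes listed as kinases upstream of IKK, beside 17.1% of all genes, without a test.

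Among the ligands 3 of 8 were IP, beside 17.1% of all genes. The roles hold 4 to 21 genes each, and differences between roles were not tested. The start of *Tnfsf11*, which encodes RANKL, was 3.43 kb from a WT LAD and inside a KO LAD, with 66.5% of the span in a KO-only DR. *Il1a* (interleukin 1 alpha) already had its start in a WT LAD, and 50.4% of its span was in a KO-only DR. *Tnfsf13b*, which encodes the B-cell factor BAFF, had 16.6% of its span in a KO-only DR. Its span was 50.9% in WT LADs and 100% in KO LADs, and its start was 4.76 kb from a WT LAD and inside a KO LAD. *Cd40lg*, the CD40 ligand gene, was PP with its whole span in LADs of both genotypes. *Il1b*, next to *Il1a*, was II, with distances of 44.7 kb (WT) and 51.4 kb (KO), and *Ltb*, a lymphotoxin gene, was II at 665 kb in both.

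Among the receptors 2 of 13 were IP, beside 17.1% of all genes. *Tnfrsf11a*, which encodes RANK, the receptor of RANKL, had 43.4% of its span in KO-only DRs, and its start lay 6.19 kb from a WT LAD and inside a KO LAD. *Il1r1*, the interleukin 1 receptor, had 21.2% of its span in a KO-only DR, and its start lay 173 kb from a LAD in WT and 20.1 kb in KO. Its accessory chain gene *Il1rap* was AMB, with 28.3% of the span in KO-only and 15.8% in WT-only DRs. *Tlr4*, the lipopolysaccharide receptor, was the single PI gene of the list. It was wholly in a WT LAD and 93.8% in KO LADs, and its start was 6.34 kb from a LAD in KO. *Ly96*, which encodes the partner of TLR4, was II, 25.3 kb from a LAD in WT and 23.3 kb in KO. *Tlr2* was II, with distances of 80.4 kb (WT) and 31.3 kb (KO), and *Tlr3* was II at 199 kb and 36.3 kb.

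The adaptors had 2 IP genes of 21, beside 17.1% of all genes. *Traf6*, the ubiquitin ligase gene downstream of the interleukin 1 and Toll-like receptors, had 32.6% of its span in a KO-only DR, with its start 33.4 kb from a LAD in WT and inside one in KO. *Tab3*, a subunit gene of the TAK1 complex, was AMB with 30.7% of the span in KO-only and 17.0% in WT-only DRs. *Tab2*, its relative, was II although its start was 13.0 kb from a LAD in WT and 0.64 kb in KO. *Birc3* and *Birc2*, which encode the ubiquitin ligases cIAP2 and cIAP1, were II at 10.6 and 48.6 kb in KO, against 118 and 79.6 kb in WT.

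Of the 5 genes listed as kinases upstream of IKK, *Map3k7* (TAK1) and *Map3k8* (TPL2) were IP, beside 17.1% of all genes. This role name is the list's and does not hold strictly for *Map3k8*, *Tbk1* and *Ikbke*. *Map3k7* and *Map3k8* had 17.6% and 23.3% of their spans in KO-only DRs, and neither start was in a LAD. *Tbk1*, a kinase gene related to the IKKs, was II, with distances of 339 kb (WT) and 41.6 kb (KO). *Ikbke*, another relative, was II at 648 and 334 kb. *Map3k14*, the kinase of the non-canonical pathway, was II, with distances of 207 kb (WT) and 224 kb (KO). The 4 genes of the regulatory IKK subunit and other IkB proteins were all II, beside 56.6% of all genes. All 4 were nearer to a LAD in KO, beside 86.1% of genes with the start in no WT LAD. *Ikbkg*, which encodes NEMO, was 134 kb from a LAD in WT and 64.7 kb in KO. *Nfkbiz* (IkBz) was at 106 and 27.5 kb, and *Nfkbid* at 773 and 71.6 kb.

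Of the 9 genes listed as negative regulators 3 were IP, beside 17.1% of all genes. This role name is the list's. It does not hold for *Btrc*, which was 1 of the IP genes, or for its relative *Fbxw11*, which was II. Recognition of phosphorylated IkB leads to its destruction and so frees NF-kB. *Cyld*, a deubiquitinase gene, had 63.7% of its span in KO-only DRs, with its start 180 kb from a LAD in WT and 3.16 kb in KO. *Irak3*, an inhibitory member of the IRAK family, was PP with 33.2% of its span in LADs of both genotypes. *Otulin*, a deubiquitinase gene of linear ubiquitin chains, was II, with distances of 261 kb (WT) and 39.7 kb (KO), whereas *N4bp1* was II at 49.4 and 61.9 kb. Of the 20 target genes 17 were II and 1 was IP, beside 56.6% and 17.1% of all genes. In KO 15 of the 20 starts were nearer to a LAD. The share was 66.5% over all genes and 86.1% over genes with the start in no WT LAD. The IP gene, *Ptgs2* (cyclooxygenase 2), had 53.0% of its span in a KO-only DR and 47.0% in a WT LAD. *Sele* (E-selectin) and *Bcl2a1a*, a survival gene, were PP with the whole span in LADs of both genotypes. *Ccl2*, a monocyte chemokine gene, was II, with distances of 5.67 kb (WT) and 29.5 kb (KO), 1 of the 5 target genes that were not nearer in KO. The remaining IP genes, *Irak4*, *Btrc* and *Tnfaip3*, had 15.4%, 7.96% and 5.07% of their spans in KO-only DRs. The starts of *Irak4* and *Tnfaip3* were 3.39 kb and 283 kb from a WT LAD and inside a KO LAD. That of *Btrc* was 1977 kb from a LAD in WT and 142 kb in KO. *Irak4* and *Tnfaip3* fell outside the rule for named genes and are given to complete the count.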

How the data were processed

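Intervals were analysed for WT and KO hepatocytes, each from 1 LaminB1-Dam and 1 Dam control library. Per the labels, the authors used BWA and limma with the mm9 assembly. According to the study's methods, the log2 ratio of LaminB1-Dam to Dam control per *DpnI* fragment was segmented into LADs with DNAcopy. The deposited lists hold positions only. Subtracting one LAD list from the other and keeping stretches of at least 10 kb gave DRs identical to the deposited ones on 21 of 21 chromosomes.

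Starts and spans came from GENCODE on NCBIM37, the assembly of mm9, and coordinates are 1-based. Each gene's exons are those of 1 transcript, the coding one with most exonic bases. Overlap of a span with a DR needed 1 base. Distances, windows, GATC sites and motifs were computed with Python 3.11.15, numpy 2.4.6, pysam 0.24.0 and samtools 1.23.1, and plotted with matplotlib 3.10.9. All interval operations were checked on simulated intervals with known answers. No test between genotypes was possible.

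Named were all 10 genes, the LAD-overlapping gene nearest to each, and, of the other pathway genes, all PI and AMB genes, the 10 IP genes with the largest span share in DRs, and up to 3 II or PP genes a role, those nearest to a LAD. The genes and lists were chosen with earlier results of these data known. Alternatives were other overlaps, minimum lengths, joined LADs, windows, starts and the omission of chromosome 19.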

Additional observations from a re-analysis of the deposited data

How the results depend on the processing

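No paired analysis was possible because each genotype has 1 pooled library pair and no result comes from a test. The direction of all 10 distances held when LADs under 20 kb were left out, and when distances ran from the span or another start. The size of the difference did not hold in every gene at the 20 kb limit. The WT and KO distances were then 2091 and 2070 kb for *Rela* and 229 and 225 kb for *Nfkbie*, but 556 and 0 kb for *Ikbkb*. A share over all genes is not given at this limit. Merging LADs that lay at most 50 kb apart left each of the 10 distances as it was with the full lists. Such merging can alter a distance only for a start inside a filled gap. None of the 10 starts lay in one, so this setting could not test the direction. With LADs of at least 50 kb, 5 genes were nearer to a LAD in KO. The median KO distance was 280 kb with LADs of at least 20 kb and 374 kb with at least 50 kb. Without chromosome 19 the median WT distance was 197 kb and the median LAD shares of the 1 Mb window were 16.4% in WT and 28.1% in KO. Over all 10 genes, chromosome 19 included, the median shares were 5.77% and 11.5% with LADs of at least 50 kb. They were 0% and 0% in 100 kb windows, and 25.6% and 35.4% in 2 Mb windows. Requiring 50% of the span in DRs left 1 IP gene of the 10 (*Rel*) and made 9 II, and the other overlaps kept 2 IP and 8 II. Of the 80 other pathway genes, 4 were then IP, 8 by the start alone, 20 by the 100 kb around the gene and 7 with DRs of at least 20 kb. The PI count was 0 when 10% or 50% of the span was required, 3 by the 100 kb around the gene and 2 with differences of any length. Shares over all genes are not given at these settings. The class counts at them therefore cannot be set against the 17.1% (IP) and 5.43% (PI) of all genes.

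The lists give no signal, so how far a start outside a LAD was from being called cannot be said, and stretches under 10 kb are not listed. With 1 pooled library pair per genotype, a difference between genotypes and one between pools cannot be told apart. The KO list holds more LADs than the WT list, and the part of this in the distances of these 10 genes was not tested.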
